A study of Mus musculus with 8 samples.

Results

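Maternal and paternal chromosomes of reciprocal F1 mice were compared for CG methylation in liver by reduced representation bisulfite sequencing (RRBS), which reads cytosines near MspI sites after bisulfite treatment. The comparison used the 4 F1 mice of a series of 8 mice, namely a female and a male BXD mouse, whose mother was C57BL/6J (B6) and whose father was DBA/2J (DBA), and a female and a male DXB mouse, whose mother was DBA and whose father was B6. All mice were 16 weeks old and had been fasted for 16 h, and none carried a transgene or received a treatment according to the labels. Reads that held a SNP between B6 and DBA were tagged with their strain, so that a B6 read was maternal in BXD and paternal in DXB. Strain and parental origin are thus exchanged between the crosses, and a difference that follows the parent has the same sign in both crosses, whereas one that follows the strain changes sign.

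Tagged CG positions that lay no more than 200 bp apart on an autosome were joined into fragments, and all calls of a fragment were added for each parental origin in each mouse. Of 15714 fragments with any tagged CG, 5592 had at least 10 calls for the maternal and for the paternal chromosome in each of the 4 mice, and these were tested. The tested fragments held 30077 CG positions, with a median of 4 positions and a median span of 84 bp. A position is a cytosine on 1 strand, and the strands were not joined, so a CG read on both strands counts as a pair of positions.

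In genomic imprinting, a gene is expressed from only the maternal or only the paternal copy. The choice is marked in the germ line by DNA methylation of an imprinting control region, laid down in the egg at most such regions and in sperm at a few, and the mark is kept in the embryo through the wave of demethylation after fertilization. In somatic tissue such a region therefore carries methylation on 1 parental copy whichever strain supplied it.

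The libraries held 218544809 to 845527087 calls of cytosines in all contexts per F1 mouse, of which 2.79% to 5.44% were tagged. The BXD male was the deepest and covered more CG positions than the other mice. Per mouse and parental origin, the tested fragments had 432160 to 1663238 calls in all and medians of 55 to 208 calls per fragment. B6 tags made up 52.3% to 53.4% of tagged autosomal calls. The X chromosome gave a check of the cross in the males, since a male has only a maternal X. A female has an X from each parent, so this share cannot check the cross of the females. Without the last 1% of the chromosome, which includes the end shared with the Y chromosome and was left out after the values were seen, 98.0% of tagged X calls were maternal in the BXD male and 97.46% in the DXB male, against 54.9% and 44.6% in the BXD and DXB females. In that last 1% the share was 99.9% in the BXD male and 20.6% in the DXB male, against 88.8% in the BXD female and 7.51% in the DXB female. Of 8 liver genes listed as markers of the tissue, only Fgb and Hnf4a had 10 calls or more within 1 kb of their start in the F1 mice, with levels of 27.1% to 39.7% and of 31.9% to 48.5%. No RNA was measured in these libraries.

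Maternal chromosomes were more methylated than paternal chromosomes at 3 fragments, in H13, Snrpn and Impact, by about the whole range of the scale, and no other fragment had a mean difference of 50 percentage points or more. H13 encodes signal peptide peptidase and holds the retrogene Mcts2 in an intron, Snrpn encodes a protein of small nuclear ribonucleoproteins in the Prader-Willi region, and Impact encodes a regulator of translation. Mcts2, Snrpn and Impact are known to be expressed from the paternal copy. With limma on the 4 paired differences, 2 of the 5592 fragments were called at an adjusted p below 0.05, which is 0.0358% of those tested. Both had the higher level on the maternal chromosome, and 0 had it on the paternal one.

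The H13 fragment lies at chr2:152512590-152512855 (NCBIM37, which is mm9), within an intron of the long H13 transcripts and 29 bp before the annotated start of Mcts2, on the same strand. The Snrpn fragment lies at chr7:67150029-67150115 and spans the annotated start of a Snrpn transcript on the minus strand. The reference sequences of the H13 fragment and of the part of the Snrpn fragment before its first exon are shown because these fragments carry the parental difference. They are the plus strand of chr2:152512580-152512865 and of chr7:67150043-67150125, and capitals mark the CGs with tagged calls. Some of the marked CGs had tagged calls in the BXD male alone, where strain and origin cannot be told apart.
H13: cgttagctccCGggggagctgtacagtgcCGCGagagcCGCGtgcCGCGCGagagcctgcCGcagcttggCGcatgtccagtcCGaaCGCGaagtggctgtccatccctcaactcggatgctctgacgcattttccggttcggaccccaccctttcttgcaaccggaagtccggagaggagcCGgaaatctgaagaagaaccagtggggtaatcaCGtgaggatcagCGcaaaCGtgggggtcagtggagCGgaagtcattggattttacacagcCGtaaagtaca
Snrpn: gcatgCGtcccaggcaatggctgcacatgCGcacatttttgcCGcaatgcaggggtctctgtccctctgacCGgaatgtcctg

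In windows of 300 bp centred on the fragments, the H13, Impact and Snrpn windows held 27, 22 and 16 CG dinucleotides, against a median of 7 over the windows of all tested fragments. The ratio of observed to expected CG was 1.02, 0.755 and 0.817, against a median of 0.369. The letters TGCCGC, the core bound by the imprinting factor ZFP57, were searched on both strands and overlap the CGs they contain. They occurred 3 times in the H13 window, 1 time in the Impact window and 2 times in the Snrpn window. Of all windows, 8.89% held the motif at least 1 time and 0.715% at least 2 times, and of the 974 windows with at least as many CGs as the Snrpn window these shares were 26.4% and 3.7%.

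At H13, the maternal level was 100.0% in the BXD female, 98.5% in the BXD male, 100.0% in the DXB female and 100.0% in the DXB male. The paternal level was 8.82%, 0.787%, 5.63% and 11.97% in the same order. All 4 maternal levels lay above all 4 paternal levels, and the gap between the lowest maternal and the highest paternal level was 86.5 points. The mean levels were 99.6% ± 0.773 (SD, n = 4) and 6.80% ± 4.77 (SD, n = 4), and the mean difference was 92.8 points (standard error 2.25, limma adjusted p = 0.00704). The maternal calls numbered 53, 388, 11 and 35, but calls within a fragment share reads. In the DXB female no maternal CG position had more than 1 read.

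At Snrpn, the maternal level was 87.5% in the BXD female, 95.7% in the BXD male, 95.2% in the DXB female and 95.2% in the DXB male. The paternal level was 6.67%, 1.45%, 6.06% and 0%. The groups again did not overlap, with a gap of 80.8 points. The mean levels were 93.4% ± 3.95 and 3.54% ± 3.32 (SD, n = 4 each), and the mean difference was 89.9 points (standard error 3.13, limma adjusted p = 0.0176). The deepest CG position had at least 7 reads in each of the 8 chromosome sets, and Snrpn was the called fragment nearest to the threshold.

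The Impact fragment lies at chr18:13131881-13131978 in an intron, 1120 bp after the start of the gene. Its maternal level was 92.6% in the BXD female, 95.05% in the BXD male, 97.1% in the DXB female and 100.0% in the DXB male. The paternal level was 18.2%, 0.971%, 0% and 1.75%. The groups did not overlap, with a gap of 74.4 points, and the BXD female had the highest paternal level and the lowest maternal level. The mean difference was 91.0 points (95% interval 77.3 to 104.7, standard error 4.98), and its limma adjusted p of 0.0827 lay just outside the threshold. The next fragment by p, an intergenic one at chr11:84376638-84376737 with no gene within 10 kb, had a difference of -13.0 points and an adjusted p of 1.0.

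**Figure D1:**
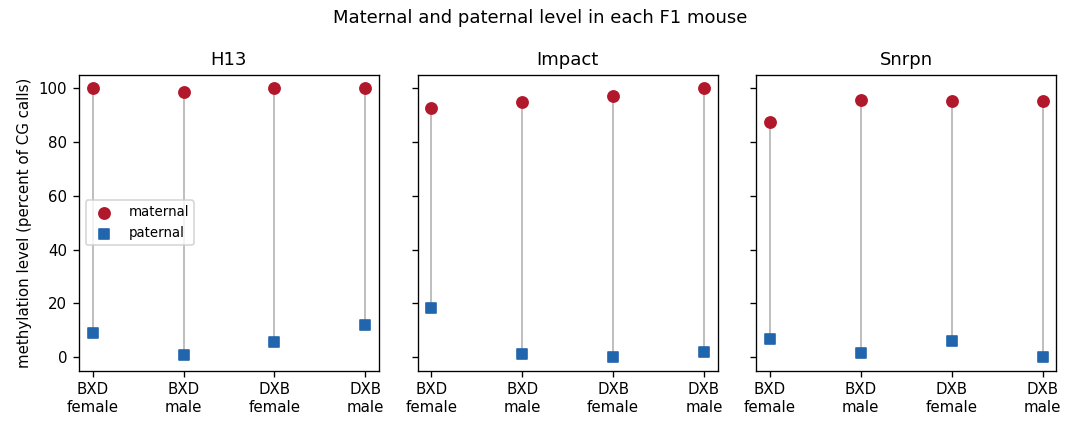
Methylation level in percent of CG calls (vertical axis) of the maternal (circles) and paternal (squares) chromosomes in each of the 4 F1 mice (horizontal axis), with 1 panel for each of H13, Impact and Snrpn and a grey line joining both chromosomes of a mouse. The maternal levels were 87.5% or more and the paternal levels 18.2% or less in each mouse.

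Fisher's exact test in each of the 4 mice with 1 direction was passed by these 3 fragments (adjusted over all fragments in each mouse, 0.0536% of those tested). It covers counting error only and takes CG calls that share a read as independent, so its p-values are too small. At H13 no position had more than 1 maternal read in the DXB female. On the arcsine scale limma called H13 alone, with an adjusted p of 0.0708 at Snrpn. Without pairing within the mouse, limma called 3 fragments, with Impact at an adjusted p of 0.000169. The paired fit without the CG positions near 0 in 1 strain and methylated in the other also called 3, with Impact at an adjusted p of 0.0476. With each mouse left out in turn, limma called 0 fragments, the H13 difference was 91.2 to 94.4 points, and the Snrpn and Impact differences were 88.1 to 92.9 and 88.5 to 96.5 points. When fragments without 5 reads at their deepest position in each set were left out, H13 and Impact could not be tested and 1 fragment, Snrpn, was called.

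Each tagged CG position of the 3 fragments had a higher level on the maternal chromosome, but some were covered in the BXD male alone, where strain and origin cannot be told apart. H13 had 19 positions, of which 11 were covered in all 8 sets and 8 in the BXD male alone, and over all mice the maternal level per position was 94.1% to 100.0%. The paternal level per position was 0% to 25.8%. The highest paternal value came from a position 172 bp after the first CG, where 3 of 6, 1 of 12, 2 of 3 and 2 of 10 paternal reads were methylated in the BXD female, BXD male, DXB female and DXB male. The next 2 positions, covered by the same numbers of reads, had 0 methylated paternal reads of 31 each. Impact had 9 positions, 4 of them covered in the BXD male alone, with maternal levels of 92.5% to 100.0% and paternal levels of 0% to 12%. Snrpn had 8 positions, with maternal levels of 90.7% to 100.0% and paternal levels of 0% to 8.24%, and 5 of these positions were covered in the BXD male alone. The highest paternal values at Impact and Snrpn came from the first and the last position of the fragment.

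**Figure D2:**
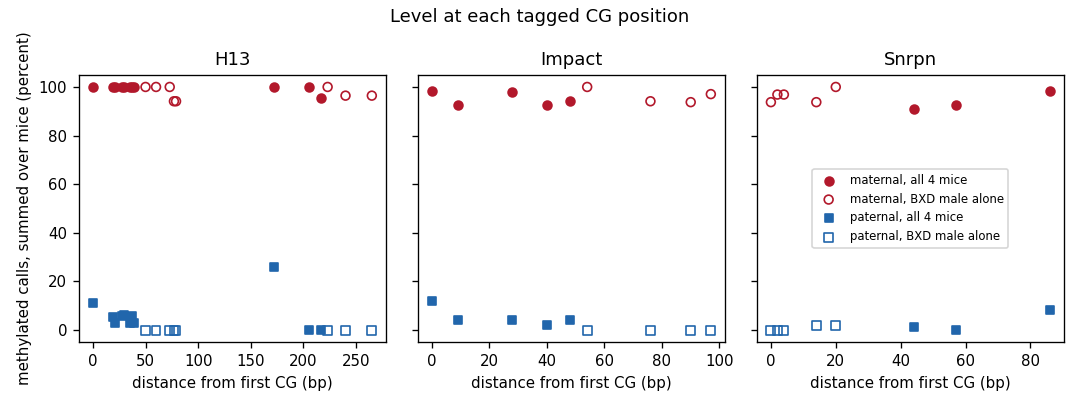
Share of methylated calls in percent, summed over mice (vertical axis), at each tagged CG position by its distance in bp from the first one of the fragment (horizontal axis), for the maternal (circles) and paternal (squares) chromosomes. Filled symbols are positions covered in all 4 mice and open symbols those covered in the BXD male alone. The maternal values lie at 90.7% or above and the paternal values at 25.8% or below.

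Cytosines outside CGs in the same reads stayed near 0. At H13, 12 of 815 maternal calls (1.47%) and 2 of 704 paternal calls (0.284%) outside CGs were methylated, at Impact 1.66% and 0.327%, and at Snrpn 0.142% and 0.266%. Over all tested fragments these levels were 0.803% on the maternal and 0.995% on the paternal chromosomes.

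The levels of all reads, taken without regard to the tag, varied between mice around the 3 fragments. At the CGs of the H13 fragment, the inbred parents had levels of 54.7% (female) and 32.6% (male) for B6 and of 42.4% (female) and 46.8% (male) for DBA. The Snrpn values were 28.1%, 30%, 37.5% and 16.98%. The Impact values were 24.5%, 0%, 42.2% and 58.3%, where the B6 male had only 12 calls. The library labelled B6 male also carried 16.1% of DBA tags, and its part in these values was not tested. In the F1 mice the H13 level over both chromosomes was 64.4%, 59.8%, 18.3% and 32.2% in the BXD female, BXD male, DXB female and DXB male, lowest in the DXB female with 82 calls. These levels rest on tagged reads alone, in the parents too, since the 8 mice had 0 calls at these CGs from reads without a SNP. At CG positions within 1000 bp that such reads did cover, with 10 calls or more, the level was 43.9% to 47.8% in the 4 F1 mice at Snrpn and 45.7% to 55.8% at Impact. At H13 it was 68.8%, 60.7% and 57.1% in the BXD female, BXD male and DXB male, and the DXB female had no such position. Where measured in an F1 mouse, these levels lay between its maternal and its paternal value at the tagged CGs. Those values lie near the ends of the scale, so almost any level would lie between them.

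No other fragment with an intermediate level in the parents had a parental difference near that of H13. Of 3475 tested fragments with 10 calls or more in each of the 4 parents, 274 (7.88%) had a level of 25% to 75% in all of them, and H13 was the only one of the 3 in this class. The mean differences between maternal and paternal chromosomes at the other 273 ran from -22.3 to 24.5 points with a median of -0.51. Of these 273, 51 (18.7%) were called between B6 and DBA, beside 16.9% of all 5592 fragments. Among the 1747 tested fragments with a mean level of 20% to 80% over the F1 chromosomes, 41.8% were called. The class asks for 25% to 75% in parents of both strains and so leaves out the largest strain differences.

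**Figure D3:**
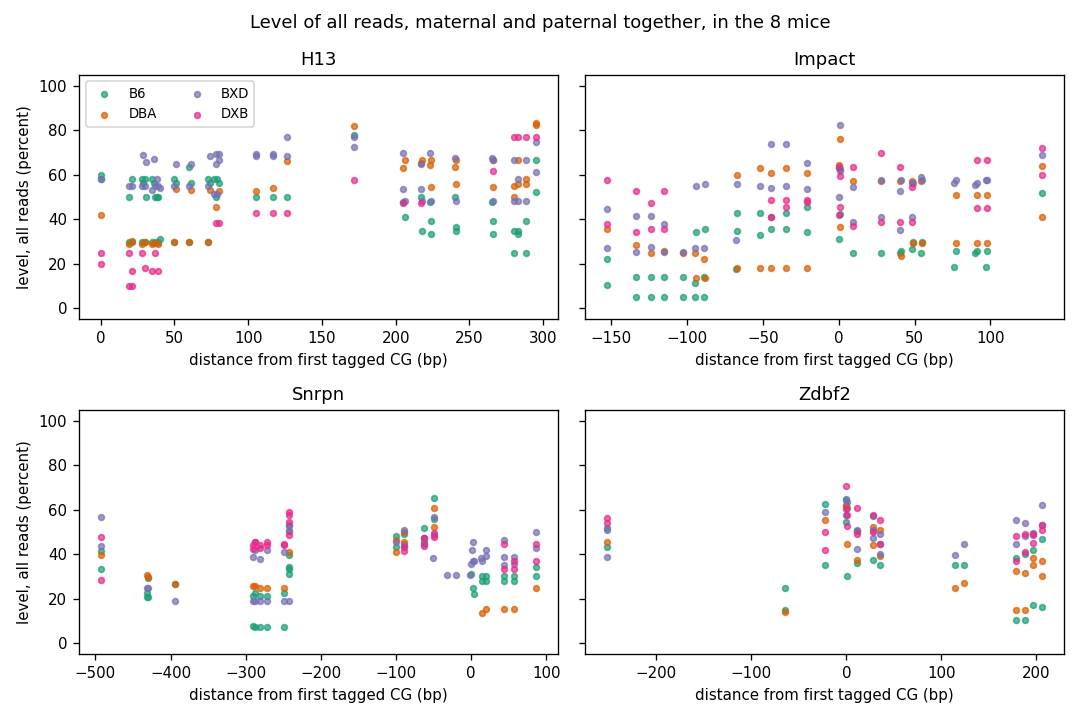
Level in percent of all reads, with both parental chromosomes together (vertical axis), at CG positions with 10 calls or more, by distance in bp from the first tagged CG (horizontal axis), in the 4 groups of 2 mice. Over the CG positions within 1000 bp, the medians over the 8 mice were 50.9% at H13, 47.7% at Impact and 41.3% at Snrpn, and at the tagged CGs of Zdbf2 52.3%.

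Few of the known imprinted genes had a tested fragment nearby. The lists of imprinted genes held 84 genes, 78 of them in the annotation, and 9 had a tested fragment within 10 kb, giving 14 fragments. Apart from the 3 above, the other 11 had mean differences of -3.14 to 5.38 points. Of these 0 were called, beside 0.0358% of all tested fragments, which is no result about these genes. The list of genes with a germline mark on the maternal copy had 10 fragments near 5 genes, with 2 called, a median of 1.09 points and 3 fragments past 50 points, beside a median of 0.00956 points and 3 such fragments among all 5592. The 4 fragments near other imprinted genes (Ddc, Qpct, Kcnk9 and Htr2a) had a median of -0.988 points. None of the 6 genes listed for a mark on the paternal copy had a tested fragment. Met, Nsd1, Vps37b, Oprd1, Mapk15 and Copg2, which the study examined for imprinting, had 0 tested fragments within 10 kb. Their parental levels could therefore not be measured here.

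The other 3 fragments of the H13 region did not share the parental difference. The fragment at chr2:152497098-152497323, near the start of the gene and in an intron, had differences of 27.0, 27.6, -18.6 and -14.4 points in the BXD female, BXD male, DXB female and DXB male. Its sign changed with the cross, and the B6 chromosome was higher by 21.9 points (limma adjusted p = 0.00829). The fragments at chr2:152532397-152532397 and chr2:152536245-152536245, near the end of the gene and after it, had mean maternal minus paternal differences of -3.14 and -2.76 points. Trappc9, whose introns hold the imprinted gene Peg13, had 4 tested fragments with maternal levels of 81.9% to 98.7% and mean differences of -2.45 to 1.21 points. Their distance from Peg13 was not measured, so they give no result about the mark of Peg13. The 101 annotated genes that the study listed near regions with allelic methylation in these same samples, and which are not independent evidence, had 30 tested fragments within 10 kb of 22 genes. Their median was -0.0488 points, and Impact was the only one past 50 points. Whether these fragments lie inside the study's regions was not examined, so they are no test of that list. The study examined some of its listed genes by RNA-seq of a published set of F1 livers and by bisulfite sequencing of clones. It reported different RNA levels of the parental copies for part of the genes with enough reads. The genes it cloned were reported as differentially methylated.

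**Figure D4:**
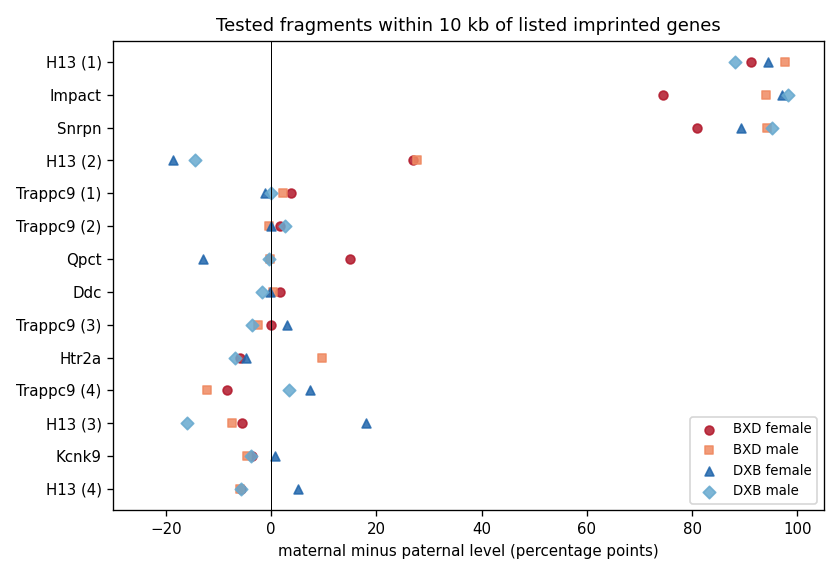
Maternal minus paternal level in percentage points (horizontal axis) in each of the 4 F1 mice (symbols) for the 14 tested fragments within 10 kb of a listed imprinted gene (vertical axis, numbered where a gene has several). The upper 3 fragments lie at 74.4 points or more in each mouse, and the second H13 fragment has values on both sides of 0 by cross.

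A fragment near Zdbf2, an imprinted gene listed here for a mark on the paternal copy, was covered by tagged reads in the BXD male alone. It was therefore not tested, and whether its methylation comes from the germ line was not examined. It lies at chr1:63312879-63312914, 6925 bp before the start of Zdbf2. In this mouse 38 of 352 maternal calls were methylated (10.8%, exact 95% interval 7.75% to 14.5%) and 359 of 391 paternal calls (91.8%, 88.6% to 94.3%), a difference of -81.0 points. These intervals cover counting error only and are too narrow, since 4 CGs share each read. With 1 mouse of 1 cross, origin and strain cannot be told apart. All reads at these CGs had levels of 40.8% to 61.1% in the 8 mice. The reference sequence of chr1:63312859-63312934 (NCBIM37, plus strand) is given because the difference was toward the paternal chromosome, with the tagged CGs in capitals.
Zdbf2: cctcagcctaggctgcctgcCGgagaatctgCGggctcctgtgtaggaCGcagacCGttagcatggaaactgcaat

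The maternal levels at its CGs were 27.3%, 3.41%, 5.68% and 6.82% from the first to the last, and the paternal levels were 96.9%, 92.9%, 90.8% and 86.6%.

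Over the whole set of fragments the maternal and paternal levels were close. The mean difference had a median of 0.00956 points and an SD of 4.64 points, the central 95% of fragments ran from -7.97 to 9.81 points, and 4625 of 5592 fragments (82.7%) lay within 5 points. The median difference per mouse was 0.529 and 0.664 points in the BXD female and male, and -0.673 and -0.736 points in the DXB female and male. The mean of these 4 medians was -0.0542 points (exact two-sided sign-flip permutation test, p = 0.75, where 4 mice allow no p below 2 of 16 sign patterns). The sign of the median differed between crosses, with B6 the higher chromosome in each mouse. Only CGs of the reference, which came from B6, were counted, so a CG lost in DBA can lower the DBA level.

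The precision differed between fragments. The 95% interval of the mean difference had a median half-width of 8.91 points, and lay within 20 points of 0 at 3961 fragments (70.8%) and within 50 points of 0 at 5250 (93.9%). A parental difference as large as those at the 3 loci was thus outside the interval at these 93.9% of fragments, and smaller differences were not detectable at many. By edgeR on the methylated and unmethylated counts 5 fragments were called (0.0894% of those tested), the 3 above and fragments in Sept11 and in Gsto1 and Wdr96. Unadjusted p-values under 0.05 numbered 84 by limma and 227 by edgeR. The Gsto1 and Wdr96 fragment, at chr19:47931306-47931473, had differences of 7.34, 56.9, -1.32 and 1.28 points, and the Sept11 fragment, at chr5:93577289-93577349, had differences of -1.42, 24.8, 1.44 and 6.25 points, in the BXD female, BXD male, DXB female and DXB male. In both the BXD male stood apart, and limma gave an adjusted p of 1.0. With only the CG positions covered in all 8 sets of calls, a setting chosen after seeing the data, the mean differences were 3.30 points at the Gsto1 and Wdr96 fragment and 1.502 points at the Sept11 fragment.

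All 4 mice had the same direction at 411 fragments (7.35% of those tested), with the maternal chromosome higher at 215 and the paternal one at 196. All 4 levels of 1 origin lay above all 4 levels of the other at 61 fragments (1.09%), with the maternal chromosome higher at 38 and the paternal one at 23. Outside the 3 loci the widest such gap was 7.64 points, at an intergenic fragment at chr8:92031914-92031967. The largest mean differences with 1 direction in all 4 mice that were not called, after Impact, were 24.5 points in an intron of Sh3pxd2a (chr19:47492235-47492235, a single CG), 21.0 points at an intergenic fragment (chr8:42231121-42231284), 20.8 points in Nme7 (chr1:166251798-166251913) and 19.4 points near Rheb (chr5:24301231-24301324). At Sh3pxd2a the differences were 17.8, 0.533, 56.0 and 23.6 points in the BXD female, BXD male, DXB female and DXB male. The intergenic fragment had differences of 33.8, 28.1, 12.4 and 9.83 points, larger in both BXD mice. With only the CG positions covered in all 8 sets the mean differences were 24.5 points at Sh3pxd2a, 9.75 points at the intergenic fragment, 21.1 points in Nme7 and 10.8 points near Rheb. All of these had a limma adjusted p of 1.0 over 5592 fragments.

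In the same fragments the strain of the chromosome gave far more calls than its parental origin. Taken as B6 minus DBA, 943 fragments (16.9%) were called by limma, with B6 higher at 803 (14.4%) and DBA at 140, and neither the H13 fragment at chr2:152512590-152512855 nor the Snrpn fragment was among them. The B6 minus DBA difference was 1.61 points at H13, -6.72 at Impact and -2.33 at Snrpn, with limma adjusted p of 0.991, 0.954 and 0.984. This strain test had no term for parental origin, so at H13, Impact and Snrpn the large parental difference counted as spread. It therefore could not show whether a strain difference was also present there. When 747 CG positions were left out, 258 of 5535 fragments were called. These positions were at 5% or less in every set of 1 strain and at 50% or more in every set of the other. B6 was higher at 186 of the 258, a share of 72.1% against 85.2% with all CGs. Only CGs of the reference were counted, and the study states that its reference came from B6. A CG lost in DBA can thus read as unmethylated there, whereas a CG found only in DBA was not counted. How far this adds to the calls with B6 higher was not tested. Fisher's exact test within each mouse had the same limit on shared reads. In the BXD female and male 997 and 1376 of the 5592 fragments were past its threshold, with the maternal chromosome higher at 827 and 1110. In the DXB female and male 849 and 839 of the 5592 were past it, with the maternal chromosome higher at only 134 and 145. The number past the threshold depends on depth. Median calls per fragment were 208 (maternal) and 180 (paternal) in the BXD male, and 55 to 86 in the other mice.

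**Figure D5:**
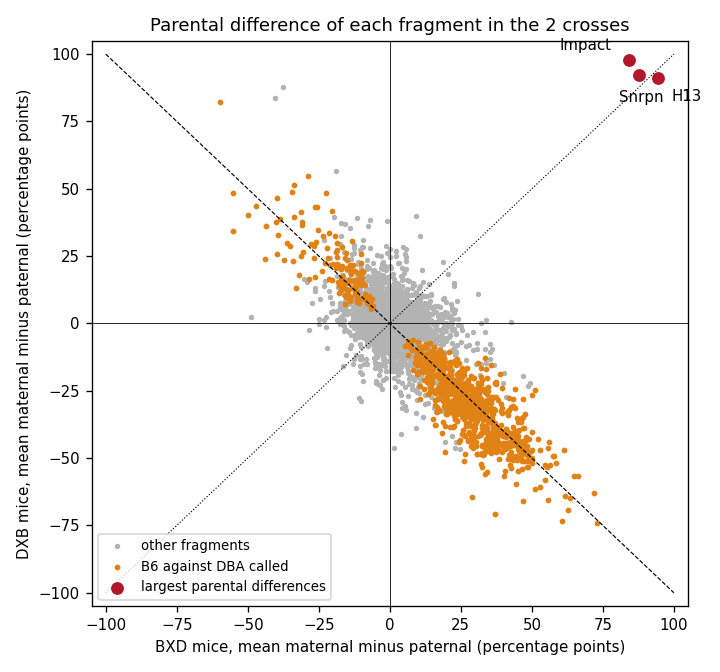
Mean maternal minus paternal level in percentage points of each tested fragment in the 2 BXD mice (horizontal axis) and in the 2 DXB mice (vertical axis), with fragments called between B6 and DBA in orange and the 3 largest parental differences in red. The dashed diagonal is where a difference follows the strain and the dotted one where it follows the parent, and H13, Impact and Snrpn stand alone in the upper right, at mean differences of 89.9 to 92.8 points.

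The median parental difference was near 0 in each kind of sequence, while the share of strain calls varied. Fragments within 1 kb of a transcript start numbered 1420, with a median parental difference of -0.116 points and 73 strain calls (5.14%). The 1995 intergenic fragments had a median of -0.00112 points and 404 strain calls (20.3%). These shares, and those given for fragments of intermediate level, rest on all CGs, among them the 747 positions left out above. No shares by kind of sequence without those positions are given.

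The maternal minus paternal difference did not differ detectably between females and males at any fragment. The sex term was past the threshold at 0 fragments (0%) by limma, and 52 had an unadjusted p below 0.05. With 2 mice of each sex the test has little precision. At H13, Impact and Snrpn the unadjusted p was 0.989, 0.372 and 0.13.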

How the data were processed

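Liver RRBS of 4 F1 mice was used for the parental comparison, and the 4 inbred parents for all-read levels. According to the methods and labels, the authors aligned reads to mm9 with BS Seeker, kept unique reads, and assigned reads with a SNP to B6 or DBA. The authors deposited raw counts of methylated and unmethylated reads per cytosine and read class, and a level as a fraction from 0 to 1. For trimming, duplicates and the BS Seeker version nothing was given in the sources used here. In addition, 4 tables of the authors' own comparisons, holding mean fractions, p-values and a score, were not used. Levels here are the summed counts as percentages, so positions with more reads weigh more, and a C-to-T SNP at a CG reads as unmethylated. All 69446 tagged CG positions were CGs in NCBIM37, and genes came from its GENCODE annotation.

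Differences within each mouse were tested by limma 3.58.1 (intercept, robust eBayes, two-sided) in R 4.3.3 with Benjamini-Hochberg adjustment over all fragments. Counts were tested by edgeR 4.0.16. The pairing comes from the animal, since both sets of a pair are from the same mouse. Python 3.11.15, scipy 1.17.1 and pysam 0.24.0 were used for the rest. Tests were checked on simulated calls that did not share reads, so the check does not cover that limit. The mice are separate animals. Fragments named are those called, those within 10 kb of genes with a germline mark, the genes the study examined for imprinting, the 5 largest not called with 1 direction, and those next to the threshold. A listed gene is not reported here. Those named from edgeR, from a single mouse or from a gap were chosen after their values were seen. The members, gene lists and tests were chosen with earlier results of these data known. Alternatives changed the minimum of calls, the gap, the unit, the pairing, the scale, the tool and the mice. Depth is given as calls per set. The 95% intervals of mean differences come from limma and the spread between mice, whereas exact intervals within a mouse cover counting error only.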

Additional observations from a re-analysis of the deposited data

Results flagged for a closer look

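A fragment in the promoter of Cyp26c1 (chr19:37761005-37761084) stood apart through the BXD male, with a difference of -94.4 points against -3.32, 11.3 and -6.71 in the BXD female, DXB female and DXB male. In the BXD male no CG position had more than 2 reads on either chromosome, so its 18 maternal and 16 paternal calls came from few reads. The fragment in Gsto1 and Wdr96 also stood apart through the BXD male, at 56.9 points, with 847 maternal and 710 paternal calls. At the single CG chr2:152532397-152532397 of H13 the DXB female had a difference of 5.0 points, against -5.76, -5.94 and -5.84 in the others. About 1 in 20 groups of 4 mice is flagged by chance in this way where they were not chosen by their values. The fragments in Cyp26c1 and in Gsto1 and Wdr96 were named after their values were seen, so this rate does not hold for them.

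The H13 fragment at chr2:152497098-152497323 had mean differences of 27.3 points in the BXD mice and -16.5 points in the DXB mice, and the difference between crosses was tested as the strain difference (limma adjusted p = 0.00829). The Zdbf2 fragment, outside the comparison because only the BXD male covered it, had a difference of -81.0 points in that mouse.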

How the results depend on the processing

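The number of fragments called between maternal and paternal chromosomes, all with the maternal one higher, was 2 with the settings of the report. It was 1 with at least 20 calls, with 5 reads at the deepest CG (chosen after seeing the data), and on the arcsine scale, where H13 was called and Snrpn had an adjusted p of 0.0708, 5 by edgeR, and 0 with at least 50 calls, for single CGs, and at an unadjusted p below 1e-06. None of the 3 loci could be tested at 50 calls or for single CGs, nor H13 and Impact at 20 calls or with 5 reads at the deepest CG. Leaving out each mouse gave counts of 0 to 0, with adjusted p of 0.0869 to 0.296 at H13. It was 3 without CGs at 0 in 1 strain, where Impact had an adjusted p of 0.0476, and 3 by Fisher's exact test. No replicate block (unpaired) gave 3 calls, and the replicate block with strain term gave 2. The mean over mice of the median difference, -0.0542 points, became 0.253 with means in place of medians, 0.0344 with at least 5 calls and 0.0694 without CGs at 0 in 1 strain, and -0.294 to 0.173 with each mouse left out, always within the spread between mice (SD 0.754). Most of that spread lay between the crosses, whose medians had opposite signs, and not between mice of a cross. Strain calls numbered 943 of 5592 fragments with the settings of the report. They numbered 258 of 5535 without those CGs, 547 of 2322 with at least 50 calls, and 659 to 877 of 5592 with each mouse left out. The share called was thus higher with at least 50 calls, although the count was lower. The sex term called 0 with at least 5, 20 and 50 calls and without robust eBayes, the settings run for it. With each mouse left out, the difference turned sign at the H13 strain fragment (-2.03 to 13.4 points), the CG after H13 (-9.68 to 1.65), 2 Trappc9 fragments (-5.72 to 0.778 and -2.06 to 0.163) and Cyp26c1 (-34.8 to 0.407). The differences at H13, Impact and Snrpn stayed between 88.1 and 96.5 points in the settings that could test them on the percent scale. Depth limits the rest: 437 tested fragments had a set with fewer than 5 reads at its deepest CG.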

Other observations

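The BXD male had 12230 fragments with 10 calls or more on each chromosome and in both female parents, more than the fragments covered in all mice. Of these, 124 differed by 50 points or more, 114 with the maternal (B6) chromosome higher and 10 with the paternal (DBA) one. At 10 of the 124 both female parents had levels of 25% to 75%. H13, Snrpn and Zdbf2 differed by 80 points or more, and the others, among them fragments in Wnk4, Nfatc4, Ccdc124, Slc16a11 and Synpo2, had differences of -65.0 to 57.4 points. Some of these rested on few reads in the BXD male itself. The Wnk4 fragment, at -65.0 points, had 10 maternal and 40 paternal calls over 5 CGs. The Nfatc4 fragment had 10 calls on each chromosome over 5 CGs, and the Ccdc124 fragment 40 maternal and 24 paternal calls over 8 CGs. Of these 10 fragments 6 were tested in all 4 mice. In the BXD female, DXB female and DXB male, which were not used to choose them, the differences were -10.8, -5.33 and 5.12 points at Nfatc4 and 26.1, -17.4 and -19.8 points at Ccdc124. The 6 also included intergenic fragments at chr12:72443388-72443408 and chr5:93864953-93864974, whose values in these mice are not given here. At those covered too thinly in another mouse, Zdbf2 among them, strain and origin cannot be told apart.

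Fragments near imprinted genes that missed the minimum of calls numbered 16 near 10 genes. Near Dlk1, an imprinted growth regulator, the maternal level was 79.6% of 93 calls in the BXD male and 66.7% of 21 calls in the DXB male, and the paternal level was 63.2% of 114 and 93.1% of 29 calls, and the B6 chromosome was the higher one in all 4 mice, with as few as 9 calls in a set. In Trappc9, a fragment covered only in the BXD male had 37.4% of 617 maternal calls and 21.9% of 556 paternal calls methylated.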
